A study of Arabidopsis thaliana with 8 samples.

Results

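In rosettes of 4 Arabidopsis thaliana genotypes, the 4 libraries whose titles carry the number 1 were set against the 4 libraries numbered 2, which together are all 8 libraries. Read counts came from rosettes of untreated 28-day-old plants of the Col-0 ecotype, 2 libraries per genotype. In the PBL19C3A line, a pbl19 mutant expresses PBL19C3A, a variant of the receptor-like cytoplasmic kinase PBL19, tagged with GFP and HA, from a PBL19 promoter transgene. The sid2 line has that same pbl19 and transgene background together with a mutation in sid2, which encodes the salicylic acid synthesis enzyme ICS1. The eds1 line has it with a mutation in eds1, the gene of an immune regulator, and WT has neither mutation nor transgene. The phenotype label is constitutive immunity for the PBL19C3A and sid2 lines, and that of WT for the eds1 line. The sources used here do not say whether a line is a single insertion or how many plants went into a library.

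The labels do not say what a number stands for (a day, a tray, a harvest or only a name), and the design text speaks of 1 biological replicate. All p-values here therefore measure only the spread between these libraries, which may be technical. Of the 18333 genes in any of the 3 count tables, 17327 stood in all 3 and were compared. Total counts lay between 46433816 and 51202472 in libraries 1, and between 37373977 and 47994640 in libraries 2. RBCS1A, the leaf marker for the small subunit of Rubisco, stood at 7245 to 10428 FPKM in libraries 1 and at 7687 to 9712 FPKM in libraries 2. Of 5 root markers, only PYK10 stood in all 3 tables.

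Several programmes make leaf RNA differ between harvests of one genotype. In the circadian clock, the dawn factors CCA1 and LHY repress evening genes such as TOC1 and GI, and the pseudo-response regulators PRR9, PRR7 and PRR5 follow one another through the day. Touch and wounding induce another set of genes within minutes. At the shoot apex, KNOX homeobox factors such as STM and KNAT1 keep meristem cells undifferentiated, and they are normally silent in the blades of leaves.

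Between libraries 1 and libraries 2, 8 genes passed the threshold, 5 higher and 3 lower in libraries 1, and all 8 moved the same way in all 4 genotypes. The higher ones included the KNOX genes STM and KNAT1, each by more than 2 on the log2 scale. The test was edgeR's quasi-likelihood test with genotype as a block, at a Benjamini-Hochberg adjusted p of 0.05 over all 17327 genes. The 8 genes are 0.0462% of the genes tested (0.0289% higher and 0.0173% lower). At an unadjusted p of 0.05, 2866 genes (16.5%) differed, 1235 higher (7.13%) and 1631 lower (9.41%). Many genes lay just past the threshold: 75 had an adjusted p below 0.06, and all 75 moved the same way in the 4 genotypes. The test sets the mean difference within genotypes against the spread of these differences. A low p thus favours one direction in all 4 genotypes. For the 8 and the 75 genes alike, that agreement is no separate support. DESeq2 called 333 genes higher (1.92%) and 555 lower (3.2%), limma-voom called 129 in all (0.745%), and with the pair of any 1 genotype left out edgeR called 0 or 1.

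STM (AT1G62360), which keeps the shoot meristem from differentiating, had 3.99, 3.11, 2.96 and 2.38 FPKM in libraries 1 of the PBL19C3A, sid2 and eds1 lines and WT, against 0.445, 0.583, 0.609 and 0.385 FPKM in libraries 2. Every library 1 lay above every library 2. The log2 fold change, libraries 1 over libraries 2, was 2.56 ± 0.21 (SE; edgeR adjusted p = 0.042). Its read counts were 158 to 265 in libraries 1 and 24 to 40 in libraries 2. KNAT1 (AT4G08150), a KNOX gene of the meristem and stem, had 3.14, 2.04, 1.34 and 1.31 FPKM in libraries 1 in the same genotype order, against 0.435, 0.409, 0.324 and 0.241 FPKM in libraries 2. These values did not overlap either, and the log2 fold change was 2.37 ± 0.21 (edgeR adjusted p = 0.0442). Both genes were chosen by a low p in this comparison, which favours a lack of overlap. The same holds for genes named below by a low p or a large difference. The share of all genes without overlap is not given here. In a bulk rosette sample, more cells of a type and more RNA per cell cannot be told apart.

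SCPL31 (AT1G11080), a serine carboxypeptidase-like protein, had 17.4, 12.0, 15.8 and 13.7 FPKM in libraries 1 of the PBL19C3A, sid2 and eds1 lines and WT, against 2.35, 2.65, 3.89 and 2.82 FPKM in libraries 2. Its log2 fold change of 2.31 ± 0.15 shared the lowest adjusted p of the comparison with AT5G19190 (0.0171, edgeR), and its groups lay far apart. USPL1 (AT1G49320), listed as a protein like an unknown seed protein, had 4.45 to 8.15 FPKM in libraries 1 and 1.00 to 2.58 FPKM in libraries 2, a log2 fold change of 1.94 ± 0.16 (edgeR adjusted p = 0.042). HB5 (AT5G65310), a homeodomain-leucine zipper factor, had 17.4, 20.1, 25.5 and 26.4 FPKM in libraries 1 and 9.85, 9.46, 13.6 and 12.1 FPKM in libraries 2. It rose by 0.96 ± 0.09 on the log2 scale (edgeR adjusted p = 0.0448), again with no overlap.

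Of the 3 genes that fell, AT5G19190, which encodes an uncharacterized protein, had 167, 186, 215 and 281 FPKM in libraries 1 of the PBL19C3A, sid2 and eds1 lines and WT, against 312, 413, 469 and 578 FPKM in libraries 2. The groups did not overlap, and the log2 fold change was -1.08 ± 0.07 (edgeR adjusted p = 0.0171). OPT7 (AT4G10770), an oligopeptide transporter, had 9.20, 9.73, 13.9 and 15.9 FPKM in libraries 1 and 14.9, 18.1, 28.2 and 26.5 FPKM in libraries 2. AT1G55960, of the polyketide cyclase and lipid transport superfamily, had 38.1 to 58.7 FPKM in libraries 1 and 58.1 to 90.0 FPKM in libraries 2. For OPT7 and AT1G55960 the groups overlapped across genotypes, while within each genotype library 1 was the lower one. The log2 fold changes were -0.86 ± 0.08 and -0.61 ± 0.06 (edgeR adjusted p = 0.0473 and 0.0475).

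**Figure D1:**
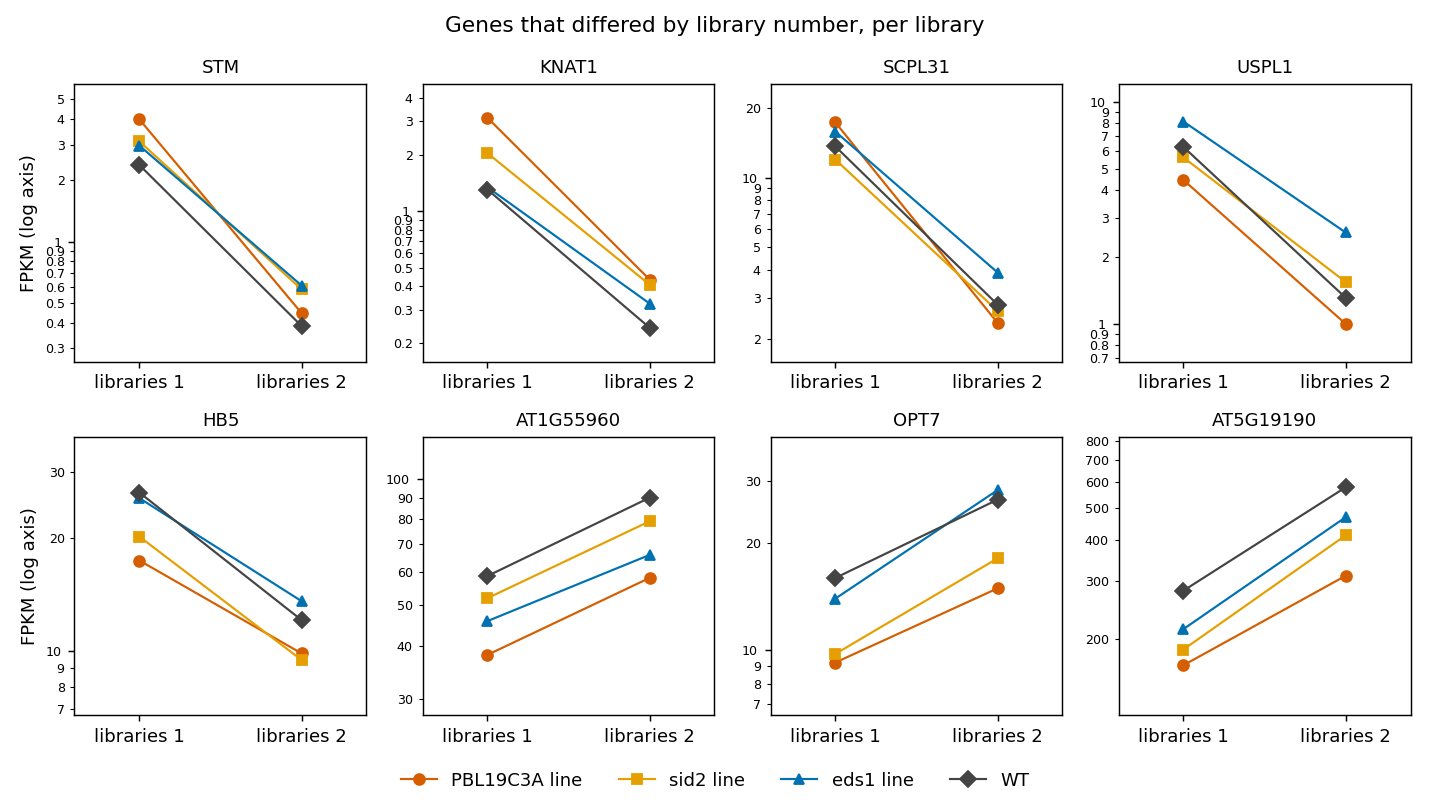
FPKM (log axis) of the 8 genes past the threshold, with 1 point per library and a line joining library 1 (left) and library 2 (right) of each genotype. All 4 lines descend for STM, KNAT1, SCPL31, USPL1 and HB5, and all 4 ascend for AT1G55960, OPT7 and AT5G19190.

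The genes next in order of p all had an adjusted p of 0.0514 with edgeR, just past the threshold, so their values are given without a call. DESeq2, limma-voom and edgeR with a robust prior called each of them. Among the 10 higher in libraries 1, CYP78A5 (AT1G13710), the growth-promoting cytochrome P450 KLUH of organ primordia, had 2.15, 2.81, 2.94 and 2.91 FPKM in libraries 1, against 0.227, 0.872, 0.401 and 0.377 FPKM in libraries 2. AN3 (AT5G28640), a transcriptional coactivator that promotes cell proliferation in leaves, had 3.80 to 6.08 FPKM in libraries 1 and 1.34 to 2.21 FPKM in libraries 2. Both genes act in young organs, and in both every library 1 stood above every library 2. PDC2 (AT5G54960), a pyruvate decarboxylase of ethanol fermentation, had 4.32 to 9.57 FPKM in libraries 1 and 2.44 to 4.67 FPKM in libraries 2. The others were the transporter gene AT1G59740, the jacalin lectin gene AT1G33790, the cutinase gene CDEF1, the glycosyltransferase-like AT1G28710, the acyltransferase-like AT5G01210, the peroxidase gene AT5G58390 and the lipid transfer protein gene AT5G01870. Their log2 fold changes lay between 0.81 and 1.46.

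The 10 next genes on the lower side included MYB70 (AT2G23290) and MYB73 (AT4G37260), related MYB transcription factors. MYB70 had 22.5, 17.1, 15.8 and 16.0 FPKM in libraries 1 of the PBL19C3A, sid2 and eds1 lines and WT, against 34.7, 40.5, 39.2 and 38.1 FPKM in libraries 2, and MYB73 had 27.0 to 39.4 FPKM in libraries 1 and 56.8 to 64.9 FPKM in libraries 2. In both, no library 1 reached the lowest library 2. CLC-A (AT5G40890), the vacuolar nitrate and proton exchanger, had 62.0 to 74.2 FPKM in libraries 1 and 81.9 to 115 FPKM in libraries 2. AT4G20820, of the berberine bridge enzyme family, differed most, with 1.25, 1.72, 3.89 and 5.59 FPKM in libraries 1 and 3.47, 10.9, 14.4 and 14.7 FPKM in libraries 2 (log2 fold change -1.88 ± 0.22). The xyloglucan-modifying XTH6, the leucine zipper factor gene BZIP34, the TRAF-like ZW9, the pectin acetylesterase gene AT4G19420, the RING finger gene AT5G42200 and AT3G57400 completed this group, with log2 fold changes between -1.10 and -0.59.

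A rule of size gave a wider set of genes: 24 (0.139%) were at least 2-fold higher in library 1 than in library 2 of every genotype, and 4 (0.0231%) at least 2-fold lower. They were chosen by this difference, so no test is attached to the set. It held STM, KNAT1, SCPL31, USPL1 and the third KNOX gene KNAT6 (AT1G23380), at 2.41, 2.17, 2.44 and 2.19 FPKM in libraries 1 against 0.981, 0.930, 0.960 and 0.830 FPKM in libraries 2. The neighbour of USPL1 on the chromosome, AT1G49310, had 2.63 to 2.85 FPKM in libraries 1 and 0.232 to 0.806 FPKM in libraries 2. AT3G25190, of the vacuolar iron transporter family, had 9.95 to 19.5 FPKM in libraries 1 and 1.40 to 6.12 FPKM in libraries 2. All 3 genes were clear of overlap between the numbers, which their choice by a difference in every genotype favours. On the lower side, beside AT4G20820, stood AT1G77640, a putative AP2/ERF-type DNA-binding protein, with 5.40, 5.89, 1.61 and 1.58 FPKM in libraries 1 and 12.5, 13.2, 5.97 and 5.82 FPKM in libraries 2.

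A list of genes of the shoot apex and organ boundaries was gathered after the values of STM and KNAT1 had been seen, so it gets no test. Of its 23 genes 13 stood in all 3 tables, STM, KNAT1, KNAT6 and CYP78A5 among them. The other 9 had a median log2 fold change of 0.24, beside -0.01 over all genes, and 7 of the 9 were above 0. Of these 9, values were higher in libraries 1 for LOB, which marks organ boundaries (0.68 ± 0.17), and for the growth regulators ANT (0.63 ± 0.16) and AIL6 (0.66 ± 0.24), none of them called by edgeR. The meristem receptor gene CLV1 stood at 0.24 ± 0.07, BOP2 and ATH1 at 0.04 ± 0.11 and 0.05 ± 0.13, and BLR at -0.22 ± 0.08. The lowest of the 9 genes stood at -0.40. Summed over the 9 genes, FPKM was 37.3, 43.1, 47.1 and 49.0 in libraries 1 of the PBL19C3A, sid2 and eds1 lines and WT, against 29.1, 37.3, 43.2 and 44.7 in libraries 2, so the groups overlapped while library 1 was the higher one within each genotype. The summed level of the 3 mesophyll markers lay between 22225 and 37055 FPKM in libraries 1 and between 24645 and 35772 FPKM in libraries 2. Median log2 fold changes of the other marker lists were -0.10 for guard cells, -0.09 for epidermis, 0.09 for phloem and 0.01 for xylem, and PYK10 of the root stood at -0.09 ± 0.09. The floral markers AP1, AP3, PI and AG did not stand in all 3 tables. Gathered in the same late way, 7 genes of root endodermis and stele had a median of 0.16. They ranged from -0.43 up to the phosphate exporter gene PHO1 at 1.3 ± 0.2. The 5 genes of cambium and xylem differentiation had a median of 0.18 and ranged from -0.28 to 0.24. The part of tissue composition in these differences was not tested.

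Clock genes did not pass edgeR's threshold, and several had differences of one sign in all 4 genotypes. CCA1 (AT2G46830) had 36.4, 56.8, 56.7 and 52.8 FPKM in libraries 1 of the PBL19C3A, sid2 and eds1 lines and WT, against 49.6, 71.4, 62.7 and 79.6 FPKM in libraries 2 (log2 fold change -0.40 ± 0.08, edgeR adjusted p = 0.107). LHY (AT1G01060) had 24.8, 24.4, 16.1 and 15.4 FPKM in libraries 1 and 25.1, 34.5, 23.6 and 27.7 FPKM in libraries 2 (-0.50 ± 0.12, edgeR adjusted p = 0.143). Both dawn genes were lower in library 1 of each genotype, although the groups overlapped and the LHY pair of the PBL19C3A line was nearly level. RVE8, a close relative that acts in the morning, stood at -0.50 ± 0.07 (edgeR adjusted p = 0.0606).

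Several genes that the clock runs later in the day had higher values in libraries 1. PRR9 (AT2G46790), the first of the pseudo-response regulators, had 15.4, 21.3, 23.1 and 20.1 FPKM in libraries 1, against 10.5, 7.52, 8.10 and 10.2 FPKM in libraries 2 (log2 fold change 1.11 ± 0.17, edgeR adjusted p = 0.064). GI (AT1G22770), the evening gene of photoperiod flowering, had 5.12, 7.45, 5.80 and 5.05 FPKM in libraries 1 and 4.03, 4.14, 2.93 and 1.92 FPKM in libraries 2 (0.86 ± 0.17, edgeR adjusted p = 0.0958). The numbers did not overlap for either gene, and the share of all genes of which this is true is not given here. TOC1 stood at 0.43 ± 0.10 (edgeR adjusted p = 0.131), with 5.32 to 15.4 FPKM in libraries 1 and 4.16 to 12.7 FPKM in libraries 2, and was higher in library 1 of each genotype. PRR7 stood at 0.32 ± 0.10 and the RNA-binding protein gene GRP7 at 0.90 ± 0.20, also higher in each genotype. PRR5 stood at 0.31 ± 0.21, with 0.534 to 1.29 FPKM in libraries 1 and 0.404 to 1.32 FPKM in libraries 2, and the sid2 line went the other way. Across the morning list, 3 of 11 measured genes were higher and 3 lower at an unadjusted p of 0.05, and across the evening list 4 of 9 were higher and 1 lower, beside 7.13% higher and 9.41% lower over all genes. In all 4 pairs, 4 of the 11 morning genes were higher and 3 lower, and 5 of the 9 evening genes were higher and 1 lower. Over all genes these shares were 11.5% higher and 14.4% lower. DESeq2 called CCA1, LHY and RVE8 lower and PRR9, TOC1, GI and GRP7 higher in libraries 1. The sources used here give no hour of harvest, and its part in these values was not tested.

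**Figure D2:**
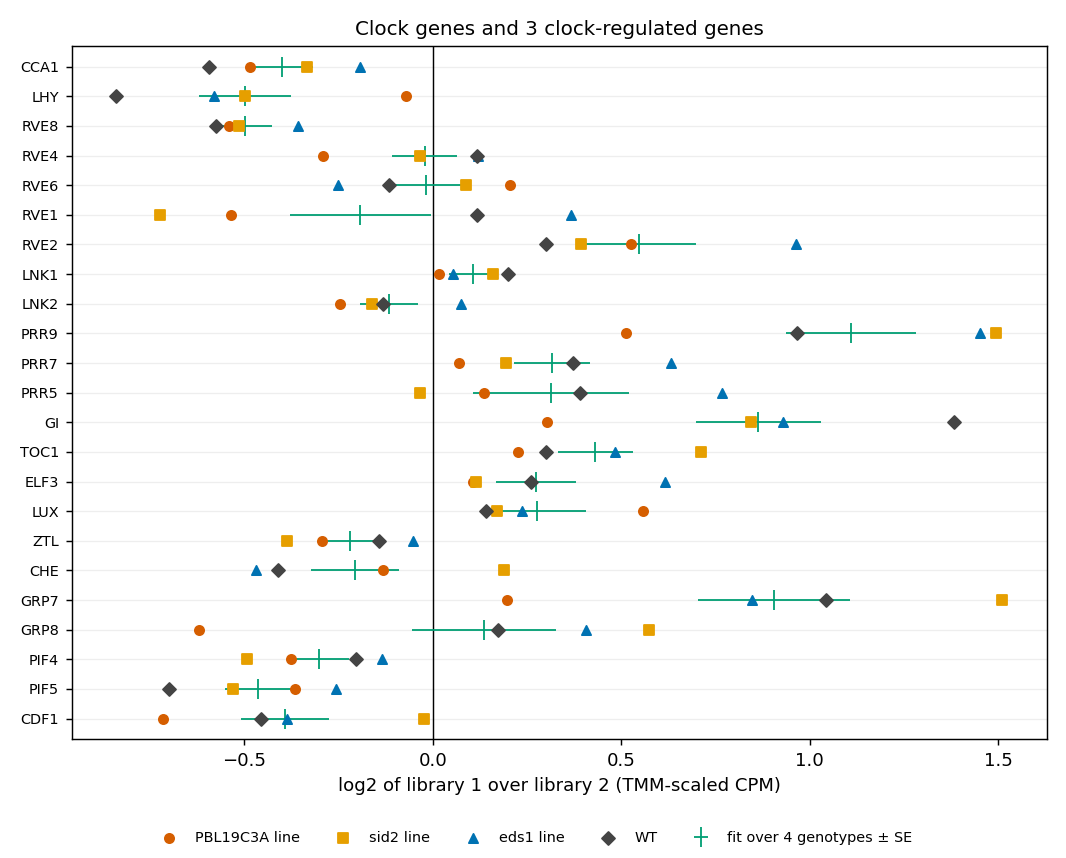
Log2 of library 1 over library 2 for the 20 clock genes measured and for PIF4, PIF5 and CDF1, with 1 symbol per genotype and, in green, the edgeR fit over the 4 genotypes ± SE. CCA1, LHY and RVE8 lie left of 0 in all 4 genotypes, and PRR9, GI, TOC1 and PRR7 right of it.

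Growth regulators downstream of light and the clock had lower values in libraries 1, none past edgeR's threshold. PIF5, a phytochrome-interacting factor that promotes elongation, had 171, 151, 192 and 157 FPKM in libraries 1, against 214, 217, 225 and 255 FPKM in libraries 2 (log2 fold change -0.46 ± 0.09, edgeR adjusted p = 0.0958). PIF4 stood at -0.30 ± 0.08, the shade-response gene HFR1 at -0.57 ± 0.16 and CDF1, which represses flowering, at -0.39 ± 0.12. In each of these 4 genes library 1 was the lower one in all 4 genotypes. Of the 14 measured genes of the light and photoperiod list, 7 were lower and 1 higher at an unadjusted p of 0.05 (9.41% and 7.13% over all genes), with a median of -0.21. Among 15 sugar and dark response genes the median was 0.03, while TPS8, a trehalose phosphate synthase-like gene of sugar signalling, stood at -0.58 ± 0.08 (edgeR adjusted p = 0.0521), with 125 to 147 FPKM in libraries 1 and 187 to 225 FPKM in libraries 2.

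Genes of sulfur deficiency had the lowest median of the lists, -0.94 over 5 measured genes, none called by edgeR. SDI2 (AT1G04770), a repressor of glucosinolate synthesis induced when sulfate is short, had 4.95, 3.84, 2.08 and 1.79 FPKM in libraries 1 of the PBL19C3A, sid2 and eds1 lines and WT, against 6.77, 9.61, 8.23 and 11.7 FPKM in libraries 2 (log2 fold change -1.62 ± 0.35, edgeR adjusted p = 0.112). LSU2, another gene of low sulfur, had 1.24, 1.46, 0.381 and 0.931 FPKM in libraries 1 and 3.40, 2.72, 2.32 and 2.49 FPKM in libraries 2 (-1.52 ± 0.31, edgeR adjusted p = 0.102). No library 1 reached a library 2 for either gene. The sulfate assimilation enzymes APR1, APR2 and APR3 stood at -0.92 ± 0.39, -0.74 ± 0.28 and -0.94 ± 0.30, and each was lower in library 1 of the sid2 line, the eds1 line and WT but higher in that of the PBL19C3A line. SDI1 was listed for 3 genotypes, at 0.420, 0.399 and 0.482 FPKM in libraries 1 of the sid2 line, eds1 line and WT, against 2.89, 5.92 and 9.05 FPKM in libraries 2.

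Abscisic acid and drought genes went both ways, with a median of 0.40 over 14 genes. HAI2 (AT1G07430), an abscisic acid-induced protein phosphatase, had 0.538, 2.29, 2.67 and 0.639 FPKM in libraries 1, against 0.239, 0.315, 0.375 and 0.114 FPKM in libraries 2 (log2 fold change 2.38 ± 0.33, edgeR adjusted p = 0.0563), with no overlap. Its relative HAI1 stood at 0.96 ± 0.25, while P5CS1, the enzyme of proline synthesis, stood at -0.67 ± 0.10 (edgeR adjusted p = 0.0606) and RD22 at -0.49 ± 0.10. DFR, the anthocyanin enzyme dihydroflavonol reductase, had 3.23 to 6.14 FPKM in libraries 1 and 0.326 to 2.81 FPKM in libraries 2 (2.09 ± 0.33, edgeR adjusted p = 0.0662), and LDOX of the same pathway stood at 1.25 ± 0.40, whereas the median of the 7 measured flavonoid genes was -0.12. Low oxygen genes had the highest median of the lists, 0.81 over 5 genes, led by SUS4 at 1.29 ± 0.35, ADH1 at 0.99 ± 0.33 and LBD41 at 0.81 ± 0.15. The pair medians of the list were 1.64 for PBL19C3A plants, 0.71 for sid2 plants, 0.15 for eds1 plants and 0.52 for WT, so the size differed from one genotype to the next. NIR1, nitrite reductase, stood at -0.47 ± 0.07 (edgeR adjusted p = 0.064), and among 9 nitrogen genes the median was -0.09. Cell cycle genes had a median of 0.36 over 9 genes, with CDKB2;2, a mitotic kinase, at 0.53 ± 0.12.

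Across all 26 lists, which were chosen with earlier results of these data known, edgeR called 0 of 267 measured members. DESeq2 called 31 (11.6%, beside 5.12% of all genes), limma-voom 7 (2.62%, beside 0.745%) and edgeR with a robust prior 5 (1.87%, beside 0.675%). Medians close to 0 were those of photosynthesis (-0.07 over 19 genes), endoplasmic reticulum folding (-0.04 over 10) and reference genes (-0.01 over 8). Iron stood at 0.24, leaf senescence at 0.16, the ethylene and defensin branch at 0.32, jasmonate at 0.36, auxin and cell expansion at -0.15, flowering at -0.09 from 2 genes, cold at -0.04, aliphatic glucosinolates at -0.01 and pattern-triggered immunity with camalexin at 0.05. The morning clock list stood at -0.02 and the evening one at 0.28. The medians of the phosphate, salicylic acid, heat shock and rapid response lists were -0.28, -0.12, -0.17 and -0.12, with pair medians of both signs. In 3 of the 26 lists, evening clock, light and photoperiod, and low oxygen, the pair medians had one sign in all 4 genotypes. Among single genes, 25.9% moved the same way in all 4 pairs, so a count of 3 does not set these lists apart.

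**Figure D3:**
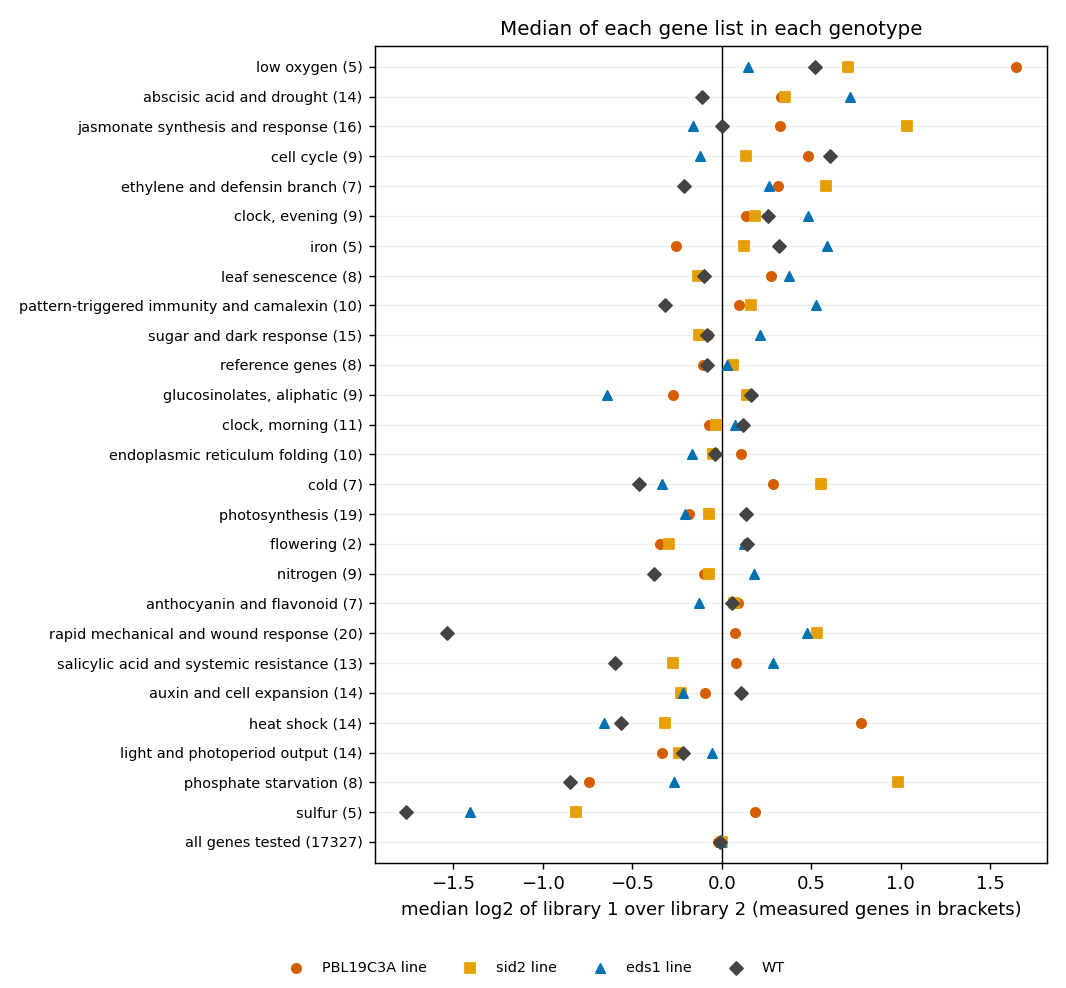
Median log2 of library 1 over library 2 in each of the 26 lists, in the order of their fitted medians, with 1 symbol per genotype and the number of measured genes in brackets; all genes tested are at the bottom. The distance between the lowest and the highest genotype is least for reference genes (0.17) and the morning clock (0.19), and greatest for rapid response (2.07), sulfur (1.95), phosphate (1.84), low oxygen (1.495) and heat shock genes (1.43).

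Rapid touch and wound genes did not move together with library number. Their pair medians were 0.08 for PBL19C3A plants, 0.53 for sid2 plants, 0.48 for eds1 plants and -1.53 for WT. Of the 20 genes, 14 were lower in library 1 of WT and higher in that of the eds1 line, a pattern found in 20.6% of all genes. That pattern was not among the planned comparisons, each genotype gave only 1 pair, and the 20 genes are not replicates. WRKY40, an immune and stress transcription factor, had 71.5, 53.3, 54.5 and 5.96 FPKM in libraries 1 of the PBL19C3A, sid2 and eds1 lines and WT, against 76.4, 20.5, 9.20 and 12.1 FPKM in libraries 2. ZAT10, a zinc finger factor of stress, had 38.4, 38.1, 60.3 and 2.33 FPKM in libraries 1 and 44.5, 25.9, 30.9 and 17.6 FPKM in libraries 2. TCH4, a touch-induced cell wall enzyme, and ERF104, an ethylene response factor, were the exceptions that went one way in all 4 genotypes. TCH4 had 492, 360, 251 and 144 FPKM in libraries 1 and 639, 675, 648 and 801 FPKM in libraries 2 (log2 fold change -1.3 ± 0.31, edgeR adjusted p = 0.139), and ERF104 stood at -0.76 ± 0.22. Heat shock genes had pair medians of 0.78 for PBL19C3A plants, -0.31 for sid2 plants, -0.66 for eds1 plants and -0.56 for WT. Phosphate starvation genes had -0.74, 0.99, -0.27 and -0.85, and jasmonate genes 0.33, 1.04, -0.16 and 0.00 in the same order.

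**Figure D4:**
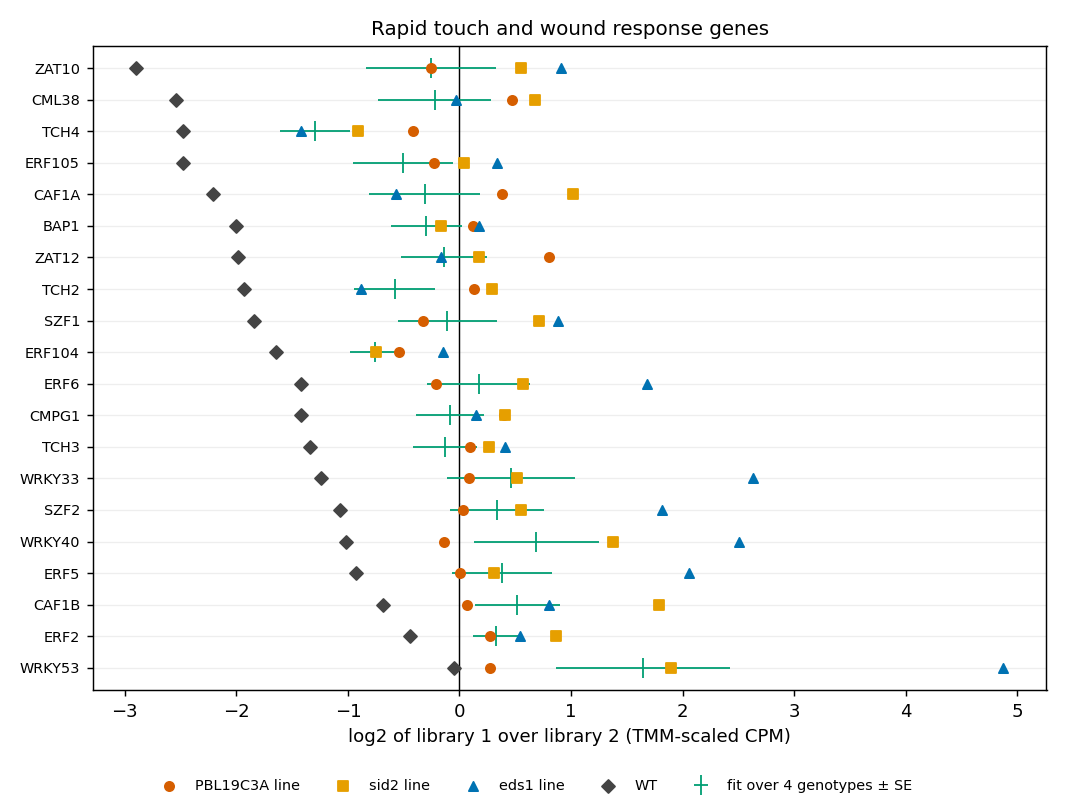
Log2 of library 1 over library 2 for 20 rapid touch and wound genes, ordered by the WT pair, with 1 symbol per genotype and, in green, the edgeR fit ± SE. WT lies left of 0 for all 20 genes, and the eds1 line lies right of it for 14.

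The genes that define the genotypes were not called by library number. PBL19 (AT5G47070) had 2197, 626, 65.1 and 7.40 FPKM in libraries 1 of the PBL19C3A, sid2 and eds1 lines and WT, against 1637, 956, 37.9 and 10.4 FPKM in libraries 2 (log2 fold change 0.01 ± 0.24, edgeR adjusted p = 0.991). Transgene and native reads fall on 1 locus here and cannot be separated. ICS1, listed as EDS16 (AT1G74710), had 72.6, 5.02, 6.37 and 5.81 FPKM in libraries 1 and 57.1, 4.45, 7.89 and 8.78 FPKM in libraries 2 (-0.11 ± 0.16, edgeR adjusted p = 0.775). EDS1 (AT3G48090) had 55.7, 24.3, 4.99 and 8.03 FPKM in libraries 1 and 58.4, 33.9, 3.21 and 13.4 FPKM in libraries 2 (-0.20 ± 0.20, edgeR adjusted p = 0.662). For PBL19 the order of the 4 genotypes was the same in libraries 1 and in libraries 2, with the 3 transgenic lines above WT. The sid2 and eds1 alleles need not lower the RNA of their genes, so ICS1 and EDS1 RNA is no check of those labels.

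Library number was a smaller source of variation than genotype. Of the variance of log2 CPM over all genes, 80.6% lay between genotypes, 8.15% went with library number and 11.2% was left. Number thus held 42.0% of the variance within genotypes on 1 degree of freedom, and the rest held 58.0% on 3. After each genotype's mean was taken out, the first component held 42.6% of the variance, and all 4 libraries 1 stood on one side, at 13.8 to 22.1, with all 4 libraries 2 at the mirrored values that pairs give by construction. Differences between libraries 1 and 2 correlated across genes from 0.134 (sid2 line and WT) to 0.345 (PBL19C3A and sid2 lines) over 17327 genes, which are not independent replicates. Of all genes, 25.9% moved the same way in all 4 pairs (1993 higher, 11.5%, and 2497 lower, 14.4%). Genes at least 2-fold higher numbered 340 (1.96%) for PBL19C3A plants, 384 (2.22%) for sid2 plants, 428 (2.47%) for eds1 plants and 221 (1.28%) for WT. Genes at least 2-fold lower numbered 139 (0.802%), 155 (0.895%), 229 (1.32%) and 359 (2.07%), so WT alone had more lower than higher ones. Among the 4 genotypes, 4326 genes differed (25%) without library number in the edgeR model, and 5575 (32.2%) with it as a replicate block.

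**Figure D5:**
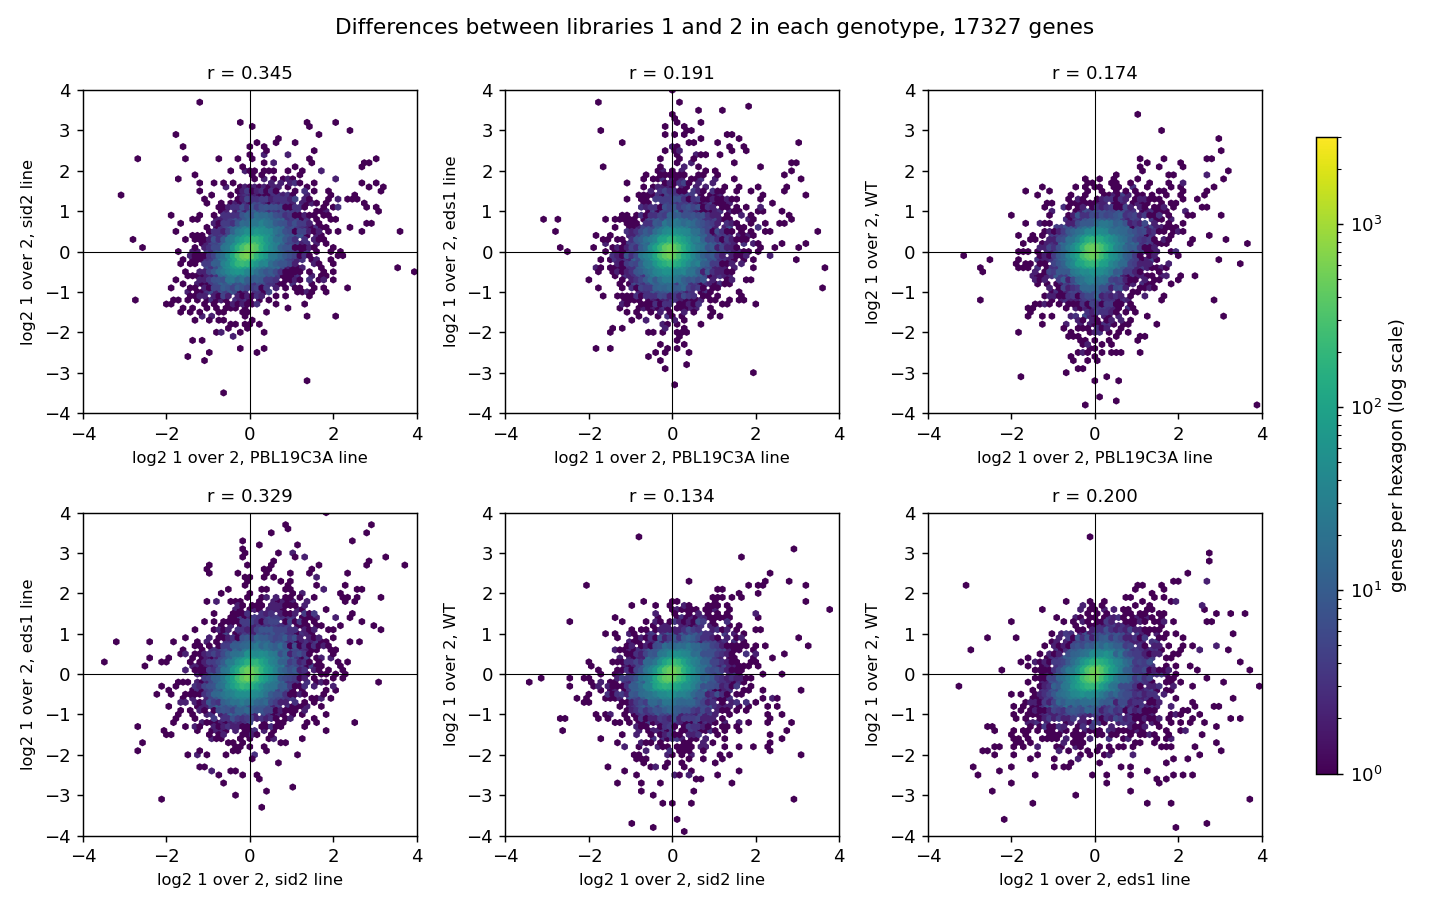
Log2 of library 1 over library 2 in one genotype against another, for all 6 pairs of genotypes, with shading for the number of genes per hexagon; genes beyond the axes are not drawn. Pearson's r across genes is 0.345 for the PBL19C3A and sid2 lines and 0.134 for the sid2 line and WT.

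Technical measures also moved with library number in part. Total counts were higher in library 1 of 3 genotypes (exact sign-flip permutation p = 0.25, two-sided), and the TMM factor in all 4 (exact permutation p = 0.13, the smallest that 4 pairs allow). The share of counts in the 50 most abundant genes was higher in library 1 of 1 genotype (exact permutation p = 0.625), and that of organelle genes in 2 (exact permutation p = 0.5). The ratio of count to FPKM stands in for transcript length here, and the median log2 difference of the third of genes with the lowest ratio was -0.02 for PBL19C3A plants, 0.04 for sid2 plants, 0.04 for eds1 plants and 0.09 for WT, against -0.03, -0.05, -0.04 and -0.08 for the third with the highest. Their part in the results above was not tested.

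Whether the difference by number itself depended on the phenotype label was tested as an interaction of number with the label constitutive immunity. By edgeR 0 genes (0%) passed, with 1568 (9.05%) at an unadjusted p of 0.05, while DESeq2 called 215, edgeR with a robust prior 15 and limma-voom 0. Lowest in p was SLAH3 (AT5G24030), an anion channel gene, with log2 differences of 1.10 and 1.26 in the PBL19C3A and sid2 lines and -0.82 and -0.76 in the eds1 line and WT (interaction 1.97, edgeR adjusted p = 0.0843). PCC1 (AT3G22231), a gene controlled by pathogens and the clock, stood at 0.37 and 1.06 in the PBL19C3A and sid2 lines and at -2.79 and -2.47 in the eds1 line and WT (interaction 3.35, edgeR adjusted p = 0.0879). The glucanase gene PR2 (listed as BGL2, AT3G57260), a salicylic acid marker, had 337, 131, 0.649 and 2.39 FPKM in libraries 1 and 346, 158, 2.26 and 7.59 FPKM in libraries 2, so that the pairs of the immune lines were near level and the others lower in library 1 (interaction 1.56, edgeR adjusted p = 0.11). With a WT or eds1 line library left out the interaction counts were 64 to 67.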

How the data were processed

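Per the file headers, the authors deposited read counts, which are whole numbers, and FPKM values, which scale fragments to transcript length and library size. The submitters' processing notes name HISAT2 2.0.4 and TAIR10. No source used here names the counting tool or says whether strand was kept, so overlapping, antisense and near-identical genes may share reads. RNA was extracted with RNAiso Plus, per the labels' protocols. The 3 deposited count tables each hold WT and 1 line, and only genes in all 3 were used. In all, 571826 values were read into the joined table. Where a value of the same gene and library stood in more than 1 table, 0 differed. Counts of the 3 lines stood in 1 table each, so they had no such check. The reference annotation is of another release (TAIR10.1), so it served for names and neighbour order only, and no coordinates or sequences are given.

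Counts were fitted with edgeR 4.0.16 (R 4.3.3; quasi-likelihood, TMM scaling, filterByExpr, which removed 0 genes) with genotype and library number as terms, leaving 3 residual degrees of freedom. Log2 fold changes run libraries 1 over libraries 2, and pair differences use log2 CPM with a prior count of 2. The interaction fit had 2 residual degrees of freedom. The procedure was tested on simulated data. Alternatives were RLE and upper quartile scaling, DESeq2 1.42.0, voom of limma 3.58.1, no filter, at least 10 CPM, no genotype block, each library left out, and, added after seeing the data, a robust prior. Technical measures were compared by an exact two-sided sign-flip test over 4 pairs.

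Library numbers stand in the titles. Pair differences correlated above 0.1 for every 2 genotypes (lowest 0.134), while among genes of at least 10 CPM the lowest was 0.084. No label says that the numbers pair the libraries, and whether they do was not tested. Named genes are PBL19, ICS1 and EDS1, 6 clock genes and called genes. Added to them were the lowest in p with one direction in the 4 genotypes, up to 10 each way. List members were picked with their values known and not always by size, so larger ones can be unnamed. Log2 fold changes of the nitrogen list reached -0.64, beside NIR1 at -0.47, and those of the pattern-triggered immunity list reached -1.63. The members and the 26 lists (342 genes) were chosen with earlier results of these data known, and 3 further lists after STM and KNAT1 had been seen.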

Additional observations from a re-analysis of the deposited data

Results flagged for a closer look

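Of 77 sets of 4 pair differences checked for 1 pair apart from the others (Dixon's criterion), 4 had one; chance alone gives about 1 in 20. The PBL19C3A pair stood apart for MYB70, with a log2 difference of -0.669 (library 1 over library 2), nearer to 0 than the other 3 pairs. The PBL19C3A pair also stood apart for CLC-A, at -0.4477, again nearer to 0 than the other 3. The eds1 pair stood apart in the median of the sugar and dark response list, at 0.216, where the PBL19C3A and sid2 lines and WT had -0.08, -0.13 and -0.08. It also stood apart in the median of the anthocyanin and flavonoid list, at -0.1294, where the PBL19C3A and sid2 lines and WT had 0.09, 0.07 and 0.06.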

How the results depend on the processing

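The count of genes differing by library number, 8, was 8 with RLE scaling and without a filter and 12 with upper quartile scaling; DESeq2 gave 888 (874 the same way in all 4 genotypes), limma-voom 129 (all 129), a robust prior 117 (all 117), and a mean of at least 10 CPM and no genotype block 2 each (both the same way). Leaving out 1 library, which also takes its partner out of the comparison, gave 0 to 1, also of those moving the same way; the 1 was SCPL31 without the PBL19C3A line library 2. The 8 genes were among the calls of DESeq2, limma-voom and the robust prior. List members called, 0, were 31, 7 and 5 with those 3. The interaction count, 0, was 215 with DESeq2, 15 with the robust prior and 0 to 67 without 1 library (67 and 65 without the eds1 line library 1 or 2, 64 and 66 without WT library 1 or 2). Genes differing among genotypes, 4326, were 5575 with the replicate block and 2214 to 3867 without 1 library. The direction of 2 uncalled genes turned: ICS1 (0.17 without the genotype block, -0.262 to 0.0504 with 1 library left out, above 0 without a WT library) and PBL19 (-0.237 to 0.232 with 1 library left out, below 0 without a PBL19C3A or eds1 line library). Of 581 values of 37 named genes under alternatives, 434 kept direction and side of the threshold, 72 lost the call and 68 gained it. The cause of these shifts was not tested. With 3 residual degrees of freedom and at most 40 reads per library 2, STM and KNAT1 have the largest SE of the 8.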
